A study of Mus musculus with 6 samples.

Results

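The inflammatory caspases and the inflammasome were followed through the cells of the mouse brain microvasculature as 9 genes of the 32287 in the deposited count matrices: the sensor *Nlrp3*, the adaptor *Pycard*, the caspases *Casp1*, *Casp4*, *Casp12* and *Casp8*, the pore-forming effector *Gsdmd*, and the cytokines *Il1b* and *Il18*. Each was chosen by its symbol, and each symbol matched 1 gene of the matrices. Cells came from the cerebral hemisphere of 3 WT mice, whose genotype is labelled C57BL/6J, and 3 ArcSwe mice, labelled AppArcSwe, a transgenic Alzheimer model with vascular amyloid and plaques, named for the Arctic and Swedish mutations of the amyloid precursor protein. All were untreated males of 12 months and each gave 1 library. The promoter that drives the transgene is not given in the sources used here, and neither is the littermate status of the WT mice. Vessel fragments were captured on CD31 beads, an endothelial surface protein, and digested into single cells, so that microglia and mural cells entered only as far as they stayed with the fragments.

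An inflammasome is a protein platform that a sensor such as NLRP3 builds with the adaptor ASC, the product of *Pycard*, to activate caspase-1. Caspase-1 cuts the precursors of interleukin-1 beta and interleukin-18 into secreted cytokines and cuts gasdermin D, whose fragments open pores in the plasma membrane and end in a lytic cell death called pyroptosis. *Casp4*, known as caspase-11 in the mouse, binds bacterial lipopolysaccharide in the cytosol and cuts gasdermin D without a canonical inflammasome. *Casp12* belongs to the same inflammatory subfamily and has been linked to the endoplasmic reticulum, whereas *Casp8* starts apoptosis at death receptors and restrains necroptosis. Transcripts of *Nlrp3*, *Il1b* and *Casp4* are induced in primed myeloid cells, and microglia are the main carriers of the NLRP3 pathway in the brain. A transcript level says nothing of cleavage or assembly.

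The genes sit on 6 chromosomes, and 3 of the caspases are neighbours. In GENCODE coordinates (GRCm38, the mm10 build of the files), *Casp1* lies at chr9:5298517-5307265, *Casp4* at chr9:5308828-5336783 and *Casp12* at chr9:5345430-5373032, all on the plus strand. Only 1562 bases separate *Casp1* from *Casp4* and 8646 separate *Casp4* from *Casp12*, a span of 74516 bases in all. *Casp8* lies at chr1:58795374-58847503, *Gsdmd* at chr15:75862327-75867408 and *Nlrp3* at chr11:59541568-59566956, all plus. *Pycard* lies at chr7:127989708-127993867 and *Il1b* at chr2:129364570-129371139, both minus. *Il18*, at chr9:50554827-50581840 on the plus strand, is far from the cluster. *Il1b* overlaps *Il1bos*, and *Il18* overlaps *Bco2* and *Tex12*, all on the opposite strand. The counting strand is not given in the sources used here, so reads of these overlaps are uncertain.

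The sequences just before the 3 neighbouring caspases are shown because these genes lie side by side and yet had different cell type patterns. They are from RefSeq (GRCm38.p6), 5′ to 3′ on the plus strand, and end at the base before the gene. Capitals mark matches to searched motifs. Upstream of *Casp1* is chr9:5298267-5298516 (250 bases), upstream of *Casp4* is chr9:5308599-5308827 (229 bases) and upstream of *Casp12* is chr9:5345226-5345429 (204 bases).
Casp1: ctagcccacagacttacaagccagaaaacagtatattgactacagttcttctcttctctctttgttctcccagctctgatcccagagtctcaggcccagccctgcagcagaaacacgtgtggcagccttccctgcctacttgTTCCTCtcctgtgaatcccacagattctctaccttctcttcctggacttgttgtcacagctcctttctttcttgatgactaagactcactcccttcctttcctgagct
Casp4: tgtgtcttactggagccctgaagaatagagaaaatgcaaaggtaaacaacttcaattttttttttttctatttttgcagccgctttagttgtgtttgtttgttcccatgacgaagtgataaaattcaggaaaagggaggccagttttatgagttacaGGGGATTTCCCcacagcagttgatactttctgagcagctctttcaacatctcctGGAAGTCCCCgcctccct
Casp12: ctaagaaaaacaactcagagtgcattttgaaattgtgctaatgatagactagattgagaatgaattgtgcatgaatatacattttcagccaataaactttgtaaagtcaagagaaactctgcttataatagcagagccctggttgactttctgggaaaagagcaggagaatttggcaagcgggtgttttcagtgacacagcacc

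In *Casp4* the capitals mark the kappa B consensus, the site bound by NF-kappa B factors. It matched in overlapping positions 93 to 83 bases before the RefSeq start and again 39 to 30 bases before it. For *Casp4* that start lies inside the GENCODE gene, so these distances run past the last base printed. The consensus was widened after the *Casp4* sequence had been seen. It stood in 7.01% of 27025 promoter windows searched on both strands, and among the 8 members with a RefSeq promoter it matched only that of *Casp4*. In *Casp1* the capitals mark the core GAGGAA of the myeloid factor PU.1, on the minus strand 108 to 103 bases before the start. That core stood in 23.1% of promoters and in those of *Casp1*, *Nlrp3* and *Pycard*. The letters TATAAA of the TATA box matched in 13% of promoters. Upstream of *Il1b* they stood in the direction of the gene, 31 to 26 bases before the start. Upstream of *Il18* they stood only on the opposite strand, as TTTATA, 175 to 170 bases before the start. The interferon response element, read as GAAA, any 2 bases and GAAA (3.04%), and the AP-1 site TGANTCA (6.87%) matched in the window of no member. A match describes letters and is not a bound site.

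The libraries held 26436229 to 59161203 unique molecular identifiers (UMIs, single captured mRNA molecules) in 2907 to 14928 deposited cells. UMIs were summed over the cells of 1 class in 1 mouse, and a level is given as CPM, UMIs of the gene per 1000000 UMIs of that class. Counts from the 3′ end of the transcript are not scaled by length. Barrier endothelial cells (23804, from the large arterial, arteriolar, capillary and venous zones) were compared with fenestrated endothelial cells, smooth muscle cells, pericytes, microglia (6652) and perivascular macrophages. Vascular cells holding a UMI of the microglial genes *Cx3cr1* or *Aif1* were left out. The study describes such a step for barrier endothelial cells, and it was extended here to fenestrated and mural cells. Cells left out this way made up 8.10% to 27.7% of the barrier endothelial cells of a mouse. WT 3 stood apart: its 10 dissociation genes, immediate early and heat shock genes that tissue digestion induces, summed to 10700 CPM in barrier endothelial cells and 9922 in microglia, where the other mice had 20106 to 25756 and 17289 to 39483. Pairs of libraries shared 4 to 42 barcodes, at most 0.550% of the smaller library.

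Among the 4 barrier endothelial zones, *Casp4* was lowest in capillary cells. In the WT mice it averaged 8.25 CPM ± 0.859 (SD, n = 3) in capillary, 15.4 ± 3.07 in arteriolar, 48.1 ± 15.1 in large arterial and 50.8 ± 15.4 in venous endothelial cells. Capillaries had less than arterioles, and arterioles less than either large vessel class, in 6 of 6 mice. Venous exceeded large arterial levels in 5 of 6 mice, but these classes overlapped among the WT mice. Smooth muscle cells had 21.3 ± 5.62. These orders are descriptions, since clustering set the classes, although the members were left out of the genes that drove it. Among these classes microglia had by far the highest level, at 423 ± 179.

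*Casp12* was the member with less transcript in microglia than in vessels. Its WT level was 45.2 CPM ± 13.5 in large arterial, 36.2 ± 16.7 in fenestrated, 29.4 ± 3.41 in venous, 21.4 ± 7.57 in arteriolar and 16.3 ± 2.72 in capillary endothelial cells (SD, n = 3 each), and 31.3 ± 5.28 in smooth muscle cells. Microglia had 3.01 ± 1.95, below every vascular class in each of the 6 mice. Neighbouring vascular classes in this order overlapped, but large arterial cells had the highest *Casp12* among the 4 barrier zones in 6 of 6 mice. Perivascular macrophages (40 cells, 131194 UMIs) had 0 UMIs of *Casp12*, which allows up to 22.9 CPM at 3 counts, a limit for counting error only.

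*Casp1* shared that arterial peak and was otherwise scarce in vessels. Its WT level was 8.53 CPM ± 2.74 (SD, n = 3) in large arterial endothelial cells, the highest of the 4 zones in 6 of 6 mice, and 1.10 ± 0.256 to 2.57 ± 0.0967 in the other 3. Smooth muscle cells had 0.548 ± 0.474 and microglia 40.5 ± 7.41. Of the 3 linked caspases, then, *Casp1* and *Casp4* were highest in microglia and *Casp12* lowest there.

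*Casp8*, *Gsdmd*, *Pycard* and *Il18* differed less along the vessel. *Casp8* lay between 58.5 CPM ± 9.32 in venous and 69.2 ± 16.6 in large arterial endothelial cells of WT mice (SD, n = 3), with 84.5 ± 9.58 in fenestrated cells. *Gsdmd* lay between 21.4 ± 5.68 and 28.3 ± 6.26 across the same 4 zones, and *Pycard* between 24.4 ± 2.20 and 29.3 ± 6.94. Neighbouring zones overlapped among the WT mice, except that capillary cells had more *Casp8* than arteriolar cells (62.3 ± 2.79). All 3 were lowest in smooth muscle cells, at 11.0 ± 1.76 for *Casp8*, 5.82 ± 1.30 for *Gsdmd* and 11.6 ± 1.49 for *Pycard*, and highest in microglia, at 140 ± 4.73, 54.3 ± 15.7 and 200 ± 69.5. *Il18* ran from 13.1 ± 1.46 in capillary to 19.9 ± 2.07 in venous endothelial cells and fell away to 2.23 ± 2.07 in fenestrated cells, the lowest class in the WT mice, with 56.9 ± 6.03 in microglia.

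*Nlrp3* and *Il1b*, the sensor and its best known product, were low in vessels relative to microglia. *Nlrp3* had 452 CPM ± 247 in WT microglia (SD, n = 3) and 0.681 ± 1.18 to 2.64 ± 0.939 in the endothelial classes and mural cells. *Il1b* had 45.1 ± 32.9 in microglia and at most 2.34 ± 2.21 in any WT vascular class. Perivascular macrophages, pooled over the 5 mice that had any, had *Casp4* at 320 CPM (exact 95% Poisson interval 231 to 433, counting error only) and *Nlrp3* at 229 (154 to 326). Both lay within the microglial range of the mice, and no genotype comparison could be made from 40 cells.

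**Figure D1:**
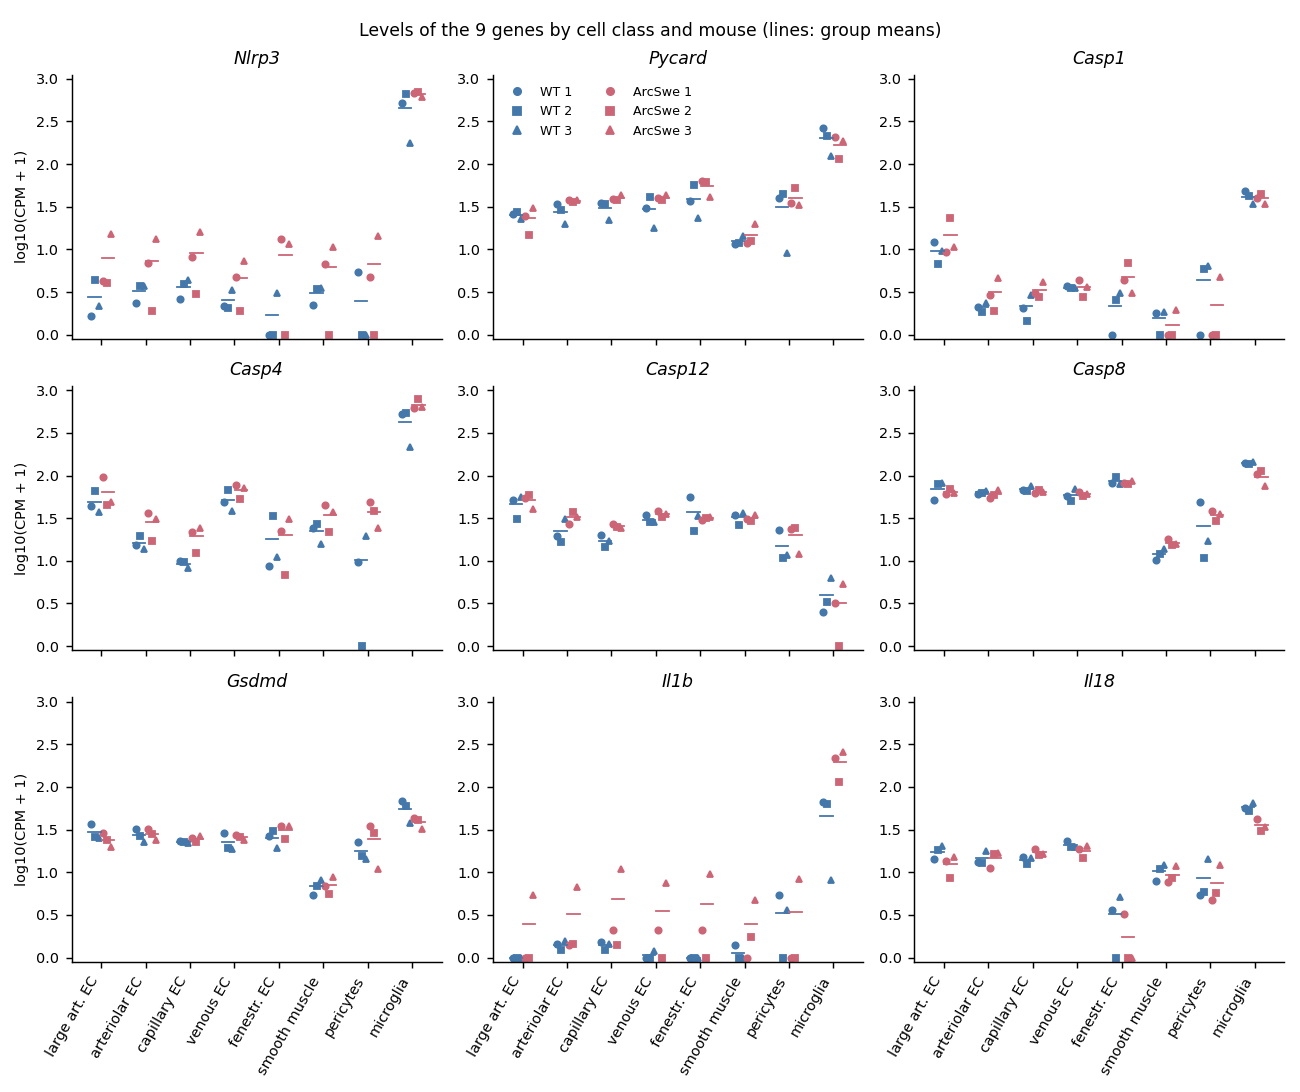
Levels of the 9 genes, as log10 of CPM + 1 on the vertical axis, in 5 endothelial classes, smooth muscle cells, pericytes and microglia. Points are the 6 mice (blue WT, red ArcSwe) and short lines are group means. By group means microglia stand highest in every panel but that of Casp12, where they stand lowest, although in ArcSwe 3 fenestrated cells exceed microglia in Casp8 and Gsdmd.

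The microglial level gave a yardstick for transcripts that vessels hold in trace amounts. For 10 microglial transcripts (*P2ry12*, *Tmem119*, *Csf1r*, *C1qa*, *C1qb*, *C1qc*, *Fcrls*, *Tyrobp*, *Trem2* and *Siglech*) the level in barrier endothelial cells was taken as a percent of that in microglia of the same mouse. All 10 were above 0 in every mouse, with summed levels of 79.3, 97.5 and 395 CPM in WT 1, 2 and 3 and 190, 57.3 and 716 in ArcSwe 1, 2 and 3. The groups overlapped, and WT 3 and ArcSwe 3 were highest. As percents, the medians of the 10 were 0.326, 0.440 and 2.30 in the WT mice and 0.879, 0.310 and 3.69 in the ArcSwe mice.

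*Nlrp3* did not exceed these transcripts. Its endothelial level was 0.264%, 0.399% and 1.54% of the microglial level in the WT mice and 0.835%, 0.228% and 2.15% in the ArcSwe mice, above the highest of the 10 transcripts in 0 of 6 mice and below the lowest in 4 of 6. By this yardstick endothelial *Nlrp3* did not stand out from the trace of microglial transcripts. Where those UMIs came from was not tested. *Il1b* exceeded the highest transcript in 2 of 6 mice, on 3 to 7 UMIs in the WT mice. *Casp4* exceeded it in 5 of 6 mice, with 3.83%, 4.41% and 9.15% in the WT and 7.13%, 3.04% and 5.45% in the ArcSwe mice. In the exception, ArcSwe 3, the highest transcript stood at 6.64%. In capillary cells alone *Casp4* exceeded it in 4 of 6 mice. *Casp1* (2.75% to 11.8%), *Pycard* (12.3% to 30.7%), *Il18* (25.1% to 48.6%), *Gsdmd* (38.2% to 75.4%), *Casp8* (44.4% to 85.0%) and *Casp12* exceeded it in 6 of 6.

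**Figure D2:**
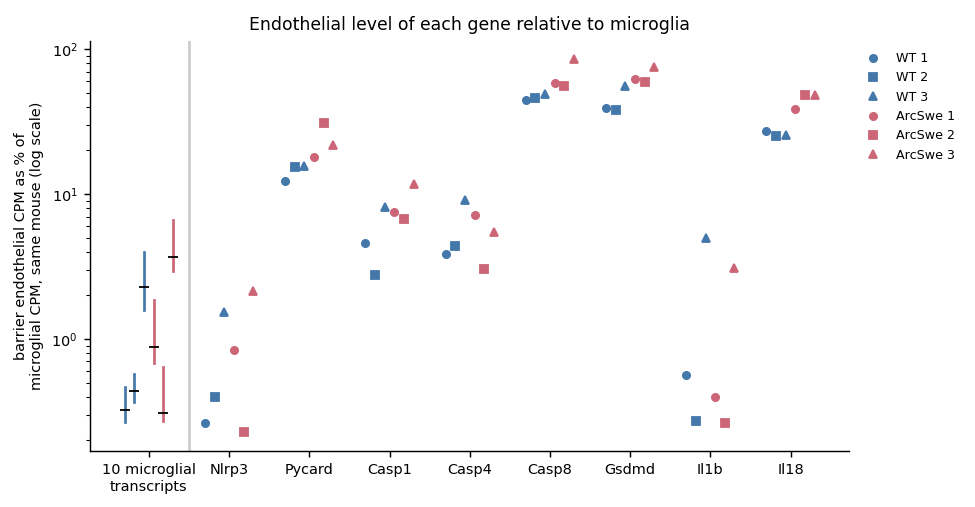
Level in barrier endothelial cells as a percent of the level in microglia of the same mouse (log axis) for 8 of the genes (all but Casp12), beside 10 microglial transcripts, whose vertical lines run from the lowest to the highest of the 10 in a mouse with a tick at the median. Points are mice; Nlrp3 lies at the level of the microglial transcripts or under it, whereas Pycard, Il18, Gsdmd and Casp8 lie above 10% in every mouse.

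ArcSwe and WT mice were compared within each class to ask whether the vessel wall carried more of these transcripts in the amyloid model. No member reached an adjusted p under 0.05 in any of the 9 classes fitted with edgeR's quasi-likelihood test, in a setting where 0 of 13480 genes (0%) did so in barrier endothelial cells, 15 of 10935 (0.137%) in microglia and 1 of 9534 (0.0105%) in large arterial cells. In barrier endothelial cells 588 genes had an unadjusted p under 0.05, and DESeq2 called 13. Among the members DESeq2 called 1 in 1 class, *Casp4* in capillary cells. Unadjusted p-values are therefore given as descriptions, beside the share of all genes that had them. Of the 9 members 8 were abundant enough to be tested in barrier endothelial cells, all but *Il1b*. With 3 mice a group the p-values measure the spread between these mice, and fewer expressing cells cannot be told from less RNA per cell.

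In barrier endothelial cells *Casp4* was at 19.9, 23.5 and 19.9 CPM in WT 1, 2 and 3 and at 43.8, 23.7 and 34.7 in ArcSwe 1, 2 and 3. Every ArcSwe mouse was above every WT mouse, ArcSwe 2 barely so. This sum mixes zones that differ in *Casp4*, in shares that vary by mouse. Venous cells held 2784627 of 17586218 barrier UMIs in WT 2 and 2263649 of 10144610 in ArcSwe 2. Zone by zone, ArcSwe 2 was above WT 2 in capillary cells and below it in arteriolar, large arterial and venous cells. The part of the zone mix was not tested. The log2 fold change was 0.73 ± 0.22 (SE, n = 3 against 3), with an unadjusted p of 0.0103 and an adjusted p of 0.995 (edgeR), or 0.337 to 1 across the alternatives. Without ArcSwe 1 it was 0.49.

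*Casp12* was at 24.1, 17.2 and 26.2 CPM in the WT and 31.4, 30.7 and 28.6 in the ArcSwe mice, again without overlap. Its log2 fold change was 0.46 ± 0.13 (unadjusted p 0.00847, adjusted p = 0.995, edgeR). *Casp1* was at 2.18, 1.14 and 2.66 CPM against 2.92, 2.96 and 3.85, on 20 to 87 UMIs a mouse (log2 fold change 0.75 ± 0.31). The 3 linked caspases thus all had a higher mean in the ArcSwe mice and groups that did not overlap.

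*Pycard* was the fourth such gene, at 32.2, 32.4 and 19.6 CPM in the WT and 36.6, 35.0 and 40.2 in the ArcSwe mice (log2 fold change 0.43 ± 0.21). WT 3 was its low sample. Groups that did not overlap, with the ArcSwe mice higher, were found for these 4 of 8 members, beside 3.43% of all genes. An unadjusted p under 0.05 with a higher ArcSwe level was found for 4 of 8, namely *Casp1*, *Casp4*, *Casp12* and *Nlrp3*, beside 2.46% of all genes. Without WT 3 that count was 6 of 9, beside 6.21% of all genes, and without ArcSwe 3 it was 2 of 8, *Casp4* and *Casp12*, beside 1.93%.

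*Nlrp3* was at 1.38, 2.62 and 2.72 CPM in the WT and 5.66, 1.58 and 13 in the ArcSwe mice. The groups overlapped, since ArcSwe 2 was below 2 WT mice, and ArcSwe 3, highest in the summed microglial transcripts, was also highest in *Nlrp3*. The log2 fold change of 1.66 ± 0.64 was 0.79 without ArcSwe 3. *Il1b*, not tested, was at 0.372, 0.171 and 0.355 against 0.870, 0.296 and 7.93. The part of microglial RNA in both genes was not tested.

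For *Casp8*, *Gsdmd* and *Il18* the group means were close in these cells. *Casp8* was at 62.4, 62.4 and 71.5 CPM in the WT and 59.8, 62.7 and 63.4 in the ArcSwe mice, a log2 fold change of -0.05 ± 0.07. *Gsdmd* was at 26.7, 22.3 and 20.7 against 26.4, 23.9 and 23.7 (0.12 ± 0.13). *Il18* was at 15.1, 13 and 16.3 against 15.8, 14.3 and 16.1 (0.09 ± 0.10). The groups overlapped for each of the 3 genes.

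**Figure D3:**
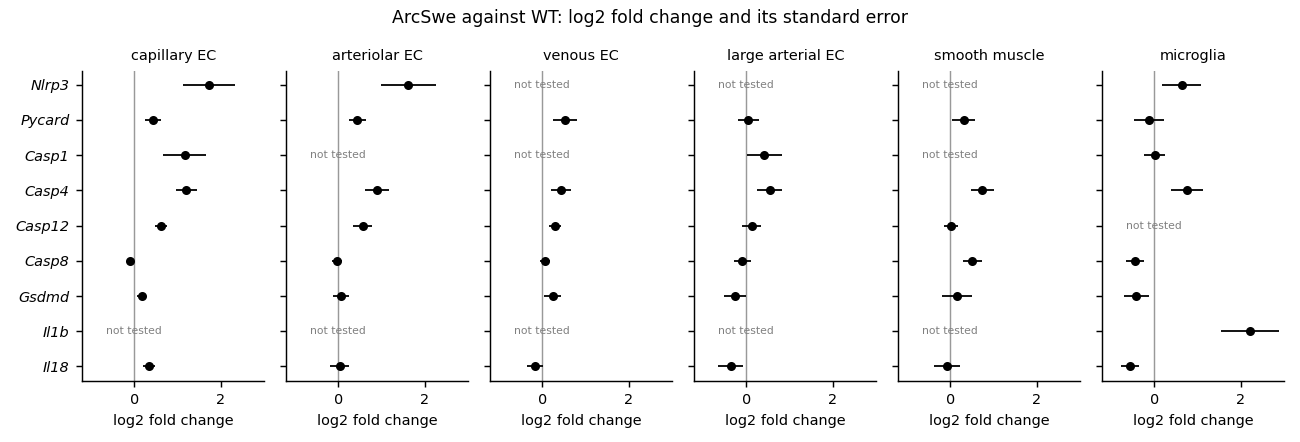
Log2 fold change of ArcSwe over WT with its standard error for each member tested, in 4 endothelial zones, smooth muscle cells and microglia, from fits to UMIs summed per mouse. Casp4 lies above 0 in all 6 panels, and Casp8 and Il18 lie below 0 in microglia.

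In capillary cells the genotypes also separated for *Casp4*. It was at 8.83, 8.66 and 7.26 CPM in WT 1, 2 and 3, on 49 to 83 UMIs, and at 20.5, 11.4 and 23.1 in ArcSwe 1, 2 and 3, on 57 to 275. All ArcSwe mice were above all WT mice. The log2 fold change was 1.20 ± 0.24, with an unadjusted p of 0.000996 and an adjusted p of 0.945 (edgeR). The adjusted p was 0.0344 in DESeq2, which called 11 of 12233 genes in this class, and 0.0344 to 1 over the alternatives, and the log2 fold change stayed between 1.01 and 1.42 when each mouse was left out.

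Capillary *Casp12* was at 19.1, 13.7 and 15.9 CPM in the WT and 26.2, 24.0 and 23.3 in the ArcSwe mice. These groups did not overlap either (log2 fold change 0.62 ± 0.13, unadjusted p 0.0014, adjusted p = 0.945, edgeR). *Pycard* was at 33.9, 32.7 and 21.3 against 38.0, 37.0 and 42.8, and *Il18* at 14.3, 11.5 and 13.6 against 18.0, 15 and 15.5, both without overlap. Groups did not overlap for these 4 of 8 members tested, beside 3.74% of all genes. An unadjusted p under 0.05, higher in the ArcSwe mice, was found for 6 of 8, beside 2.85% of all genes, and for 3 of 8 without ArcSwe 3 (beside 2.11%) and 3 of 8 without ArcSwe 1 (beside 2.09%). Without WT 3 it was found for 7 of 9, beside 6.64%.

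In the other 3 barrier zones the *Casp4* groups overlapped. Arteriolar *Casp4* was at 14.5, 18.8 and 12.8 CPM in the WT and 35.7, 16.2 and 30 in the ArcSwe mice, which overlapped through ArcSwe 2 (log2 fold change 0.89 ± 0.27). It was called in arterioles (adjusted p = 0.00409, edgeR, range over alternatives 0.00409 to 1) when genes of low count were kept in the fit, where 72 of 19193 genes were called, beside 0 of 11128 with the filter, and the log2 fold change was then 0.88. An unadjusted p under 0.05, higher in ArcSwe, was found for 4 of 7 members in arterioles, beside 2.31% of all genes, for 1 of 7 without ArcSwe 1 (beside 1.78%) and for 1 of 7 without ArcSwe 3 (beside 1.84%). Large arterial *Casp4* was at 42.8, 65.1 and 36.5 against 96.2, 43.7 and 47.6, and venous *Casp4* at 47.9, 67.5 and 37.0 against 76.1, 52.1 and 69.9. Both overlapped. In large arterial and venous cells 0 of 7 and 0 of 6 members had an unadjusted p under 0.05, and in fenestrated cells 0 of 5 did, in classes where 1.92%, 1.81% and 2.47% of all genes had one and were higher. Whether zones differ in the size of the *Casp4* change was not tested.

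Smooth muscle cells carried *Casp4* at 23.2, 25.7 and 14.9 CPM in the WT and 44.1, 20.5 and 35.9 in the ArcSwe mice, overlapping through ArcSwe 2 (log2 fold change 0.74 ± 0.27, unadjusted p 0.0177, adjusted p = 0.998, edgeR). *Casp8*, low in this class, was the 1 member of 6 whose groups did not overlap, beside 3.69% of all genes, at 9.35, 10.9 and 12.9 against 17.0, 14.4 and 14.7 CPM (log2 fold change 0.51 ± 0.22, unadjusted p 0.0395, adjusted p = 0.998, edgeR). These were the 2 of 6 members with an unadjusted p under 0.05, beside 2.48% of all genes. *Casp12* was at 33.7, 25.2 and 34.9 against 30.3, 28.1 and 33.4 (log2 fold change 0.01 ± 0.16). In pericytes, the contractile cells of capillaries, no member was abundant enough to be tested, in a class where 2.22% of 4907 genes had an unadjusted p under 0.05 and were higher. Pericyte *Casp4* rested on 2, 0 and 7 UMIs in the WT and 13, 8 and 19 in the ArcSwe mice.

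The microglial yardstick was also applied to the *Casp4* comparison. The percent that the 10 transcripts showed in a mouse, times the microglial *Casp4* level of that mouse, came to 1.69, 2.35 and 4.99 CPM in the WT and 5.40, 2.41 and 23.5 in the ArcSwe mice. With that share taken off, barrier endothelial *Casp4* was 18.2, 21.2 and 14.9 against 38.4, 21.3 and 11.2 CPM. ArcSwe 3 then lay below every WT mouse, and the log2 ratio of the means was 0.38. With the share read from *Nlrp3* in place of the 10 transcripts, the values were 18.5, 21.4 and 16.6 against 38.7, 21.9 and 21.0 (log2 ratio 0.53), with 2 ArcSwe mice above all WT mice. ArcSwe 1 stayed high on either scale. The microglial level used was that of all microglia of a mouse. Pooled over the mice, *Casp4* was at 712 CPM in low-ribosomal, 493 in other and 345 in disease-associated microglia, strata described below. The share taken off therefore depends on which microglia are taken as its source, and single strata were not tried. The subtraction was chosen after the data were seen and carries no test.

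In capillary cells the same subtraction left 6.86, 5.90 and 0.294 CPM of *Casp4* in the WT and 13.9, 8.37 and 0 in the ArcSwe mice by the transcripts, and 7.25, 6.28 and 3.07 against 14.1, 9.14 and 7.09 by *Nlrp3*. The capillary groups overlapped on both scales. *Casp12* was untouched, at 24.1, 17.2 and 26.1 against 31.4, 30.7 and 28.4 CPM in barrier endothelial cells by the transcripts, because microglia hold almost none. *Pycard* (31.3, 31.5 and 16.7 against 34.8, 34.6 and 33.4) and *Casp1* (2.03, 0.958 and 1.91 against 2.58, 2.82 and 2.64) also kept every ArcSwe mouse above every WT mouse. Barrier endothelial cells left out for holding a microglial UMI had *Casp4* at 34.5, 25.5 and 20.4 CPM in the WT and 47.3, 31.9 and 43.7 in the ArcSwe mice. These were higher than in the cells kept, by mouse, in 6 of 6 mice, and putting them back gave a log2 fold change of 0.75.

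**Figure D4:**
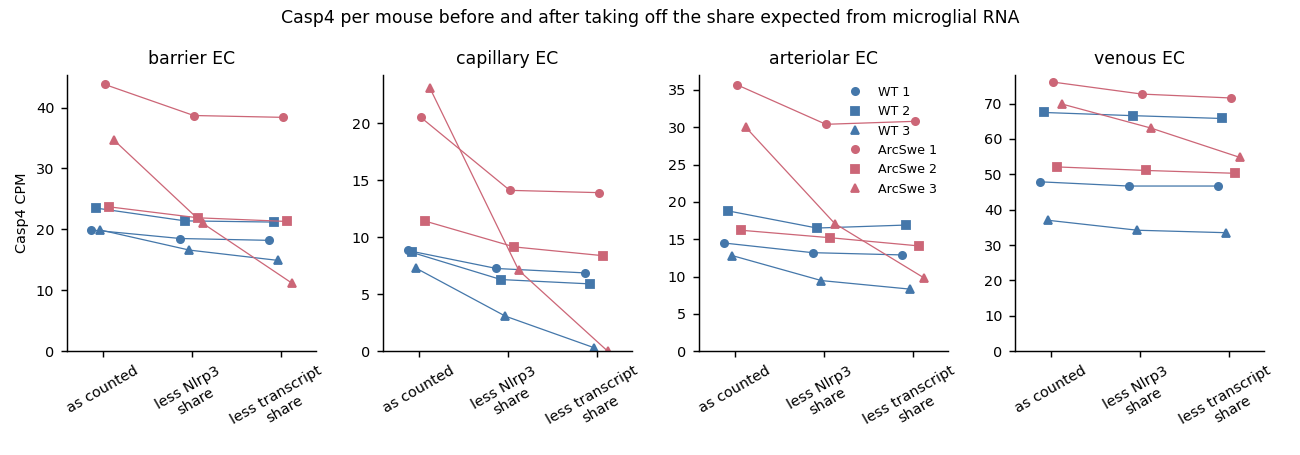
Casp4 in barrier, capillary, arteriolar and venous endothelial cells of each mouse, in CPM on axes that differ between panels, as counted and after taking off the share of the microglial level shown by 10 microglial transcripts or by Nlrp3. As counted the WT and ArcSwe points separate in barrier and capillary cells, whereas ArcSwe 3 in barrier endothelial cells falls below every WT mouse by the transcripts (11.2 CPM) and among them by Nlrp3 (21.0 CPM).

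A capillary cluster marked by interferon response genes (1087 cells) had *Casp4* at 20.2, 6.49 and 6.51 CPM in the WT and 32.1, 9.30 and 31.0 in the ArcSwe mice, on 2 to 37 UMIs a mouse. The other capillary clusters had 8.13, 8.74 and 7.32 against 19.1, 11.6 and 22.2. In these other clusters every ArcSwe mouse was above every WT mouse. There, 11 interferon response genes summed to 1620, 1442 and 1513 CPM in the WT and 2014, 1526 and 2257 in the ArcSwe mice. Over all barrier endothelial cells the same genes summed to 2074, 1748 and 2028 CPM in the WT and 2551, 2021 and 2838 in the ArcSwe mice. Their part in the *Casp4* values was not tested.

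Microglia, where 8 of 9 members were tested, showed opposite signs among them. *Il1b* was at 65.6, 62.6 and 7.12 CPM in the WT and 218, 112 and 258 in the ArcSwe mice, without overlap (log2 fold change 2.20 ± 0.67, unadjusted p 0.00966, adjusted p = 0.332, edgeR, 0.0182 to 0.987 over the alternatives). *Casp4* was at 519, 533 and 217 against 614, 779 and 638, also without overlap (0.76 ± 0.37, unadjusted p 0.0691, adjusted p = 0.52, edgeR). WT 3 was by far the lowest mouse in both genes. Without it the log2 fold change was 1.71 for *Il1b* (adjusted p = 0.0424, edgeR, in a fit that called 288 of 11319 genes) and 0.39 for *Casp4*.

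*Nlrp3* was at 523, 656 and 177 CPM in the WT and 677, 691 and 605 in the ArcSwe mice. WT 2 reached into the ArcSwe range (log2 fold change 0.63 ± 0.45), and the value was 0.19 without WT 3. The low sample of all 3 genes was thus also the mouse with the fewest dissociation gene transcripts. The part of the digestion response in these genes was not tested.

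*Il18* and *Casp8* ran the other way. *Il18* was at 55.3, 51.9 and 63.6 CPM in the WT and 40.6, 29.4 and 33.3 in the ArcSwe mice (log2 fold change -0.56 ± 0.21, unadjusted p 0.0285, adjusted p = 0.431, edgeR). *Casp8* was at 141, 135 and 145 against 102, 112 and 74.6 (-0.44 ± 0.21, unadjusted p 0.0629, adjusted p = 0.515, edgeR). Neither gene had overlapping groups, and WT 3 was beside the other WT mice in both. Pooled over the mice, disease-associated, low-ribosomal and other microglia (described below) had *Casp8* at 63.6, 115 and 140 CPM and *Il18* at 27.5, 45.4 and 56.0. Disease-associated cells held 1134767 and 1863037 UMIs in ArcSwe 1 and 3, against 29389 to 92080 in the WT mice. The part of this mix in the lower ArcSwe levels was not tested. Groups that did not overlap were found for 2 of 8 members with ArcSwe higher, beside 5.26% of all genes, and for 2 of 8 with ArcSwe lower, beside 14.2%.

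An unadjusted p under 0.05 was found for 1 of 8 higher, *Il1b* (7.11% of all genes), and 1 of 8 lower, *Il18* (3.15%). *Gsdmd* was at 67.6, 58.3 and 37.0 against 42.6, 40.4 and 31.4 CPM, *Pycard* at 262, 212 and 125 against 204, 114 and 184, and *Casp1* at 47.5, 41.4 and 32.8 against 39.0, 44.1 and 32.7. All 3 overlapped. Their log2 fold changes were -0.42 ± 0.29, -0.13 ± 0.35 and 0.01 ± 0.24.

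The microglia were a mixture that differed between mice. Clusters with under 3% ribosomal protein UMIs in the median cell held 27.5%, 33.8% and 94.6% of the microglia of WT 1, 2 and 3 and 69.3%, 93.2% and 78.6% of those of ArcSwe 1, 2 and 3. Their cells were shallow, with a median of 1003 to 1924.5 UMIs. Disease-associated microglia, named by *Cst7*, *Clec7a*, *Itgax*, *Lpl*, *Spp1*, *Csf1* and *Axl*, numbered 6, 8 and 17 in the WT and 149, 9 and 418 in the ArcSwe mice.

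*Casp4* was highest in the low-ribosomal cells, at 722, 722 and 234 CPM in the WT and 1015, 957 and 937 in the ArcSwe mice. It was lowest in disease-associated cells in every mouse but ArcSwe 2, at 143, 102 and 141 against 353, 277 and 360. The WT values rest on 6, 8 and 17 cells, and WT 3 was near level with its remaining microglia. The rest had 500, 509 and 145 against 528, 85.3 and 454, on 4 UMIs in ArcSwe 2 and 45 in WT 3, and overlapped. The log2 fold change over all microglia moved from 0.76 to 0.02 without the low-ribosomal clusters. It was 0.86 in those clusters alone and 0.99 without the disease-associated ones. The fit without the low-ribosomal clusters rests on 75 cells in WT 3 and 15 in ArcSwe 2. Its mix of disease-associated and other cells differed between the genotypes.

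In the ArcSwe mice *Il1b* was highest in disease-associated cells. These had 514, 422 and 447 CPM in the ArcSwe mice, and 28.5, 851 and 21.7 in the WT mice, where the 3 values rest on 6, 8 and 17 cells. Low-ribosomal cells had 34.0, 22.0 and 7.05 in the WT and 63.6, 53.1 and 71.8 in the ArcSwe mice, without overlap. The log2 fold change of 2.20 was 2.81 without the low-ribosomal clusters (adjusted p = 0.0231, edgeR, in a fit that called 255 of 9824 genes), 1.95 in those clusters alone and 0.50 without the disease-associated clusters. The fit that gave 2.81 rests on 75 cells in WT 3 and 15 in ArcSwe 2. WT 2 was far above WT 1 and WT 3, so these libraries do not fix a WT level in disease-associated cells.

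**Figure D5:**
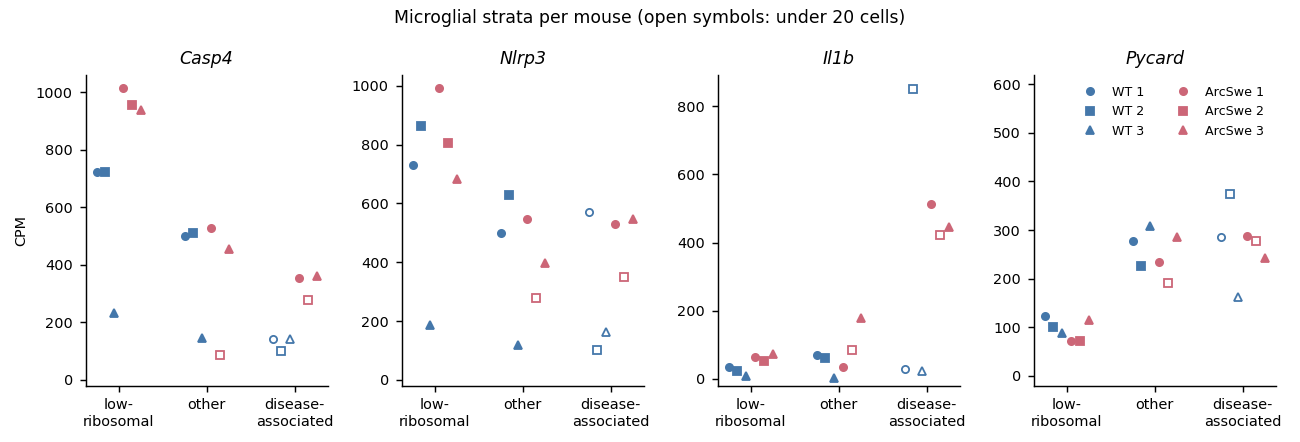
Casp4, Nlrp3, Il1b and Pycard in low-ribosomal, other and disease-associated microglia of each mouse, in CPM on linear axes that differ between panels, with open symbols for fewer than 20 cells. Casp4 of the ArcSwe mice lies above that of the WT mice in the low-ribosomal and disease-associated strata and overlaps it in the others.

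A list of 55 further genes of inflammasome sensing, cell death and interleukin-1 signalling was read from the same fits. Of these, 54 were in the matrices. None had an adjusted p under 0.05 in edgeR in any class. DESeq2 called *Gbp3* in barrier and capillary endothelial cells, *Gbp5* in arterioles, and *Zbp1* and *Tlr2* in microglia. In barrier endothelial cells 10 of 43 tested had an unadjusted p under 0.05 and were higher in the ArcSwe mice, beside 2.46% of all genes, and 0 were lower. They included *Gbp3* (log2 fold change 0.55 ± 0.12) and *Gbp2* (0.44 ± 0.12), interferon-induced GTPases that open the way for caspase-11 to bacterial membranes, and *Zbp1* (1.15 ± 0.31), a nucleic acid sensor. The median over the 43 was 0.12, beside 0.000 over all genes, and over the 8 members it was 0.45.

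In each endothelial class the listed gene with the smallest p was a guanylate-binding protein, *Gbp3* or *Gbp5*. In arterioles *Gbp5* differed by 0.65 ± 0.10 on the log2 scale (unadjusted p 0.000105, adjusted p = 0.234, edgeR), followed by *Zbp1* (1.44 ± 0.29) and *Gbp3* (0.63 ± 0.15). Capillary cells had *Gbp3* (0.56 ± 0.11), *Zbp1* (1.11 ± 0.37) and *Gbp2* (0.40 ± 0.13) at the top, and venous cells *Gbp3* (0.57 ± 0.11), *Gbp2* (0.45 ± 0.11) and *Zbp1* (1.16 ± 0.35). Large arterial cells had *Gbp5* (0.72 ± 0.16), *Tnfaip3* (1.03 ± 0.27), an inhibitor of NF-kappa B signalling, and *Il1a* (1.37 ± 0.52). Fenestrated cells had *Gbp3* (1.20 ± 0.31), *Gbp7* (0.58 ± 0.22) and *Nfkb1* (0.32 ± 0.18). The counts in these classes were 8 of 39, 9 of 40, 5 of 38, 4 of 38 and 2 of 25 higher, beside 2.31%, 2.85%, 1.81%, 1.92% and 2.47% of all genes, and 1 lower, capillary *Naip2*, beside 2.16% of all genes in capillary cells.

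In microglia 10 of 45 listed genes had an unadjusted p under 0.05 and were higher, beside 7.11% of all genes. Another 2 of 45 were lower, *Tlr4* and *Txnip*, beside 3.15% of all genes. *Zbp1* led, at 2.80 ± 0.53 on the log2 scale (adjusted p = 0.103, edgeR), then *Il18bp* (2.20 ± 0.48), the secreted inhibitor of interleukin-18, and *Tlr2* (1.26 ± 0.29), a receptor of bacterial lipoproteins. In smooth muscle cells *Tnfaip3* (1.14 ± 0.42), *Nfkb1* (0.43 ± 0.18) and *Tlr4* (-0.86 ± 0.37) led, with 3 of 28 higher and 1 lower beside 2.48% and 2.05%.

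Over the 48 sums of 8 classes and 6 mice, the genes whose log2(CPM + 1) followed *Casp4* most closely among 9354 were *Dennd4a* (Pearson r 0.893), *Rabgef1* (0.877), *Zc3h12a* (0.871), *Nfkbib* (0.854) and *Birc3* (0.845). Among the members *Nlrp3* had 0.796, *Il1b* 0.713, *Pycard* 0.584, *Il18* 0.566, *Gsdmd* 0.435 and *Casp8* 0.430, whereas *Casp12* had -0.558. *Casp1* averaged under the 10 CPM required of a gene here and has no value. The sums share mice and libraries, and microglia against the rest weighs heavily, so these are descriptions.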

How the data were processed

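Single-cell RNA sequencing of CD31-captured brain microvascular fragments was read for 3 WT and 3 ArcSwe mice. The deposited count matrices hold raw UMI counts per gene and cell, which the authors made with Cell Ranger 7.0.0 against mm10 (per the submitters' processing notes) and did not normalize. Deposited columns not used numbered 0. The 9 genes, the other lists and the alternatives were chosen with earlier results of these data known.

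Cells with 500 to 4500 genes and under 10% mitochondrial UMIs were kept, 44112 of 49059. They were clustered (Python 3.11.15, leidenalg 0.10.2, resolution 1, 2000 variable genes without the members and the pathway list) and named from at least 3 detected markers. Mixed clusters (2516 cells in unnamed clusters) were left out, and no doublet caller was run. Ribosomal, mitochondrial, pseudogene and Rik genes (2845) were removed from the tests. UMIs summed per mouse and class were tested with edgeR 4.0.16 in R 4.3.3 (filterByExpr, TMM, quasi-likelihood, genotype only, Benjamini-Hochberg over all genes of a class), with DESeq2 1.42.0 as an alternative. A class needed 10 cells in a mouse. The scripts were tested on simulated data. Named were all 9 members, the 3 listed genes with the smallest p per class, and the 5 genes most like *Casp4*. The listed genes in pericytes are not reported here. DESeq2 calls, *Naip2*, and *Txnip* and *Tlr4* in microglia were named after their values were seen. The UMIs per class and mouse ranged from 203862 (pericytes) to 22975574 (barrier endothelial cells), leaving out perivascular macrophages. Intervals cover counting error only.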

Additional observations from a re-analysis of the deposited data

Results flagged for a closer look

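A pair of members differed in opposite directions in different cell classes, with every mouse of the ArcSwe group on opposite sides of the WT mice. For *Casp8*, smooth muscle cells had a higher ArcSwe level (9.35, 10.9 and 12.9 CPM in the WT, 17.0, 14.4 and 14.7 in the ArcSwe mice) and microglia a lower one (141, 135 and 145 against 102, 112 and 74.6). The log2 changes, read from the CPM levels and not from the fits, differed by 1.01. The fitted values were 0.51 and -0.44. For *Il18*, capillary endothelial cells were higher (14.3, 11.5 and 13.6 against 18.0, 15 and 15.5) and microglia lower (55.3, 51.9 and 63.6 against 40.6, 29.4 and 33.3). That difference was 1.00 from the levels, and the fitted values were 0.34 and -0.56. Neither difference has a test, since both genes were chosen for groups that separate in opposite directions, which would fix its outcome. The classes come from the same mice, and groups of 3 were not searched for outlying samples. The mix of microglial strata differed between mice, and its part in the lower microglial levels was not tested.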

How the results depend on the processing

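The 55 fold changes of members were refitted under 732 alternatives, of which 678 kept their direction and side of the threshold, 7 passed it and 47, over 17 uncalled fold changes, changed sign. *Casp4* stayed higher in every alternative in barrier endothelial cells (log2 fold change 0.49 to 0.92 leaving out each mouse, main value 0.73) and in microglia (0.39 to 0.96, 0.02 without low-ribosomal clusters). The cause of the differences between settings was not tested. Without the low-count filter edgeR called 2 members in arteriolar cells (*Casp4*, *Nlrp3*, 72 of 19193 genes in all), 1 in venous (*Il1b*, 73 of 18955), 1 in smooth muscle (*Casp4*, 57 of 17760) and 1 in microglia (*Il1b*, 206 of 19462). DESeq2 called 1 in capillary cells, and in microglia 1 was called without WT 3 and without low-ribosomal clusters (*Il1b*). Of the 55 listed genes DESeq2 called 1 in barrier, 1 in arteriolar and 1 in capillary cells and 2 in microglia. Without the filter edgeR called 2 in large arterial (40 of 17153 genes in all), 5 in arteriolar, 2 in venous and 1 in fenestrated cells (41 of 15907). It also called 2 in smooth muscle cells and 3 in microglia. With the filter it called 4 in microglia without WT 3 (288 of 11319 genes in all) and 5 without low-ribosomal clusters (255 of 9824). *Casp4* in WT capillary cells was 10.1 CPM at a clustering resolution of 2, where 8.25 was the main value.

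Leaving out each mouse, the log2 fold changes that changed sign ran from -0.04 to 0.33 (*Casp12*), -0.27 to 0.03 (*Casp8*) and -0.19 to 0.19 (*Pycard*, -0.00 in DESeq2) in large arterial cells, and from -0.12 to 0.03 (*Casp8*), -0.08 to 0.21 (*Gsdmd*) and -0.13 to 0.22 (*Il18*) in arteriolar cells. They ran from -0.00 to 0.15 (*Casp8*) in venous cells, and from -0.24 to 1.11 (*Casp4*), -0.42 to 0.24 (*Casp12*) and -0.12 to 0.11 (*Casp8*) in fenestrated cells. In smooth muscle cells they ran from -0.10 to 0.08 (*Casp12*), -0.09 to 0.29 (*Gsdmd*), -0.03 to 0.47 (*Pycard*) and -0.37 to 0.07 (*Il18*), and in microglia from -0.20 to 0.15 (*Casp1*) and -0.41 to 0.12 (*Pycard*). With cells holding a microglial UMI kept, the changed values were -0.05 (arteriolar *Gsdmd*), -0.02 (arteriolar *Il18*), -0.03 (venous *Casp8*), 0.21 (fenestrated *Casp12*), 0.00 (fenestrated *Casp8*) and -0.07 (smooth muscle *Casp12*). At resolution 2 they were -0.04 (arteriolar *Gsdmd*) and 0.05 (microglial *Pycard*), and with the stricter cell filter -0.02 (smooth muscle *Casp12*) and 0.08 (microglial *Pycard*). Without low-ribosomal clusters microglial *Casp1* was -0.15 and *Pycard* 0.15, and in those clusters alone *Gsdmd* was 0.02. Without the low-count filter microglial *Casp1* was -0.05.

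The labels give same-numbered mice a shared number and state no pairing. Their deviations correlated by 0.0805, 0.16 and 0.361 in barrier endothelial cells and 0.338, -0.053 and 0.219 in microglia. For replicate 3 the correlation was positive in every class fitted, from 0.188 in pericytes to 0.387 in capillary cells. Replicate 1 was also positive in every class, from 0.0287 in large arterial cells to 0.338 in microglia. Whether WT 3 and ArcSwe 3 shared a processing step was not tested. The replicate block gave *Casp4* log2 fold changes of 0.71 in barrier endothelial cells and 0.89 in microglia, and -0.01 for smooth muscle *Casp12*, and called no member. Over all genes DESeq2 called 13 in barrier endothelial cells, 14 in arteriolar, 11 in capillary, 4 in venous and 3 in smooth muscle cells where edgeR called 0, and 170 in microglia where edgeR called 15. Without WT 3 edgeR called 288 in microglia, and without low-ribosomal clusters 255. Perivascular macrophages could not be fitted under any setting, since at most 1 mouse of each genotype had 10 cells. Pericytes held 203862 to 813891 UMIs a mouse and perivascular macrophages 0 to 50168, and in pericytes no member passed the low-count filter. The filters, clusters and subtraction differ from the study's own annotation.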
